A study of Saccharomyces cerevisiae with 14 samples.

Results

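The 47 independently transcribed guide snoRNAs of budding yeast (Saccharomyces cerevisiae) were followed through very short RNA labelling. They are the snoRNA features named snR in the deposited count table, less those known to be made from introns, from polycistronic transcripts or for pre-rRNA cleavage, and number 47 of 77 snoRNA features and of 12449 features in all. RefSeq places 22 of them in the box C/D class and 25 in the box H/ACA class. None lies inside another annotated gene of R64 except that snR60 overlaps the open reading frame YJL047C-A on the same strand, so reads of that pair cannot be told apart.

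Small nucleolar RNAs (snoRNAs) work as guides: each pairs with ribosomal RNA and brings a protein complex to the base to be modified. Box C/D snoRNAs carry the methyltransferase Nop1 (fibrillarin) and direct 2′-O-methylation, and box H/ACA snoRNAs carry the pseudouridine synthase Cbf5. In yeast most guides have their own promoters, are transcribed by RNA polymerase II as longer precursors and are trimmed in the nucleus to very stable RNAs.

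The study labelled new RNA with 4-thiouracil (4tU), a uracil analogue that is built into RNA and gives it a thiol by which it can be biotinylated and bound to streptavidin beads. All cells were of the MATa strain W303U, with the alleles ade2-1 and his3-11, 15, besides trp 1-1 and also leu2-3, 112 with can1-100, and were grown at 30 °C in SD medium lacking uracil and leucine to an OD600 of 0.8. Captured RNA came from 600 ml cultures given 500 µM 4tU for 1.5, 2.5 or 5 min (3 libraries each, from timecourses 1, 2 and 3) and from a bead background without 4tU (2 libraries). Total RNA of the same timecourses, depleted of rRNA and not bound to beads, gave 3 libraries. One of the 2 label-free libraries is titled background but has the source label of depleted total RNA, and the title was followed. The labels do not say whether the timecourses were grown from separate colonies, so p-values measure the spread between these libraries. The MATa label was met in every library: 6 genes specific to a cells summed to between 445 and 980 CPM, against 16.4 to 71.6 CPM for 3 genes specific to alpha cells (CPM, counts scaled to the TMM-adjusted library size).

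Sequences of 4 box C/D members are shown because these RNAs of similar size behaved differently between timecourses, and 2 box H/ACA members because one (snR31) was among the lowest at 1.5 min over total RNA and the other (snR49) among the highest at 5 min over 1.5 min. They were read from the R64 genome at the RefSeq coordinates. Capitals mark box C (TGATGA) and box D (CTGA) in the box C/D members and the last ACA in the box H/ACA members.
snR79 (chrXII:348427-348510, minus strand): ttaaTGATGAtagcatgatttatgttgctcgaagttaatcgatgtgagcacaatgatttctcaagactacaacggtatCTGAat
snR66 (chrXIV:586090-586175, plus strand): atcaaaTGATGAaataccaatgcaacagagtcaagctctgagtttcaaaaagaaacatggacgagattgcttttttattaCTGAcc
snR39B (chrVII:366374-366469, minus strand): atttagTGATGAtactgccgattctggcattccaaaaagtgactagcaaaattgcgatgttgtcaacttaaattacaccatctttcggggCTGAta
snR58 (chrXV:136088-136183, minus strand): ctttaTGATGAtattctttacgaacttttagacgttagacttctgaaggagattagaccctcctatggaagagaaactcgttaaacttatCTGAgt
snR31 (chrXV:841958-842182, minus strand): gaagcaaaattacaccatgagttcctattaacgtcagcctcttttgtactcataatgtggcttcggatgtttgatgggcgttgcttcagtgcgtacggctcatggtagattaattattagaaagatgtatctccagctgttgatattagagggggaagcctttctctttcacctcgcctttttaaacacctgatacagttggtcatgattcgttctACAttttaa
snR49 (chrXIV:716120-716284, plus strand): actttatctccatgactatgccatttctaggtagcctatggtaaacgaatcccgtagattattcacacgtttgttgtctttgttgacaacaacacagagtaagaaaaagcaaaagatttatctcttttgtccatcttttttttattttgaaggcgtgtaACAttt

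All 22 box C/D members held CTGA in their last 20 bases and 18 held TGATGA in their first 25. Among the box H/ACA members 15 of 25 held ACA in their last 10 bases. In snR39B, bases 76 to 89 pair with 14 bases of the large-subunit rRNA, and the base that pairs with the annotated methylation site G805 lies 5 bases before box D, where the box C/D guide rule puts it. A CTGA at that spacing was found for 16 of the 26 rRNA sites annotated to 20 of the box C/D members. Of these, 14 also had at least 9 base pairs with the rRNA. For some sites this CTGA was box D, and for others it lay further inside the RNA. In snR66 the pairing base is base 33, while box D starts at base 81. The members were short: 84 to 255 nt in box C/D (median 100) and 161 to 1004 nt in box H/ACA (median 201). In the window from 250 bases before to 50 after the start, the Reb1 motif TTACCCG was present on either strand for 7 of 47 members (14.9%), against 6.77% of 6441 RefSeq genes. The Tbf1 motif ACCCTAA was present for 4 of 47 (8.51%), against 2.14%; a match is a description of letters, not of binding.

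Library totals ranged between 3618310 counts (total RNA, timecourse 1) and 65173280 (total RNA, timecourse 2), of which the members took between 285279 and 6975950. rRNA took between 2.34% and 25.4% of the labelled libraries, 51.2% and 55.4% of the label-free ones and 2.65% to 28.7% of total RNA, so shares are given outside rRNA. Timecourse 1 stood apart for many of the short members, in labelled and total RNA alike. Of the members under 140 nt, 19 were box C/D and 0 box H/ACA, so length and class were largely confounded. In all 4 of its labelled and total RNA libraries, 11 of 22 box C/D members and 1 of 25 box H/ACA members were low. Scaled to counts outside rRNA, each lay over 4-fold below the mean of timecourses 2 and 3. The box C/D ones were snR40, snR50, snR52, snR56, snR62, snR64, snR66, snR68, snR71, snR79 and snR87, of 84 to 136 nt, and the box H/ACA one was snR9, of 187 nt. snR79 had 0 counts in the labelled and total RNA libraries of timecourse 1. That allows up to 1.89 CPM in that total RNA and up to 0.284 CPM in those labelled libraries. The label-free libraries, not matched to a timecourse here, held 2536 and 2078 counts of snR79. snR66 had 4.20, 7.74 and 11.4 CPM at 1.5, 2.5 and 5 min in timecourse 1, against 206, 292 and 661 CPM in timecourse 2. Length did not sort the box C/D members fully: snR39B, at 96 nt, was higher in total RNA of timecourse 1 (7666 CPM) than of timecourse 2 (5687 CPM). snR13, at 124 nt, lay above the mean of timecourses 2 and 3 in all 4 groups, by log2 differences of 0.13 to 1.05. Summed tRNA counts, from another class of short RNA, were also lower in timecourse 1, by log2 differences of −1.76 at 1.5 min and −7.78 in total RNA.

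**Figure D1:**
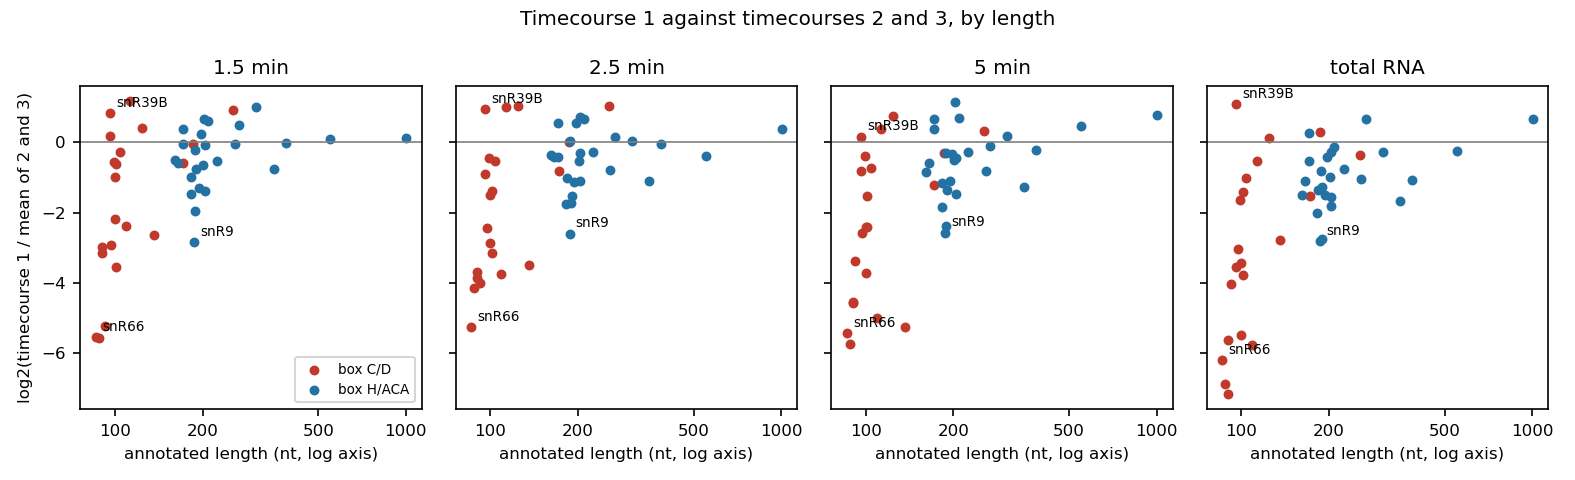
Level in timecourse 1 relative to the mean of timecourses 2 and 3 (log2, vertical axis) against annotated length (nt, log axis) for each member, 1 panel for each labelling time and 1 for total RNA; snR79, at 0 counts in timecourse 1, is not drawn. Box C/D members (red) spread over a wide range near 100 nt, with snR66 low and snR39B above 0 in each panel, while most box H/ACA members (blue) lie nearer to 0.

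Total RNA of timecourse 3 differed in another way. There 21 of 25 box H/ACA members held a larger share of counts outside rRNA than in timecourse 2, with a median ratio of 1.93. In the box C/D class 11 of 22 members were higher than in timecourse 2, with a median ratio of 1.16 and a highest ratio of 3.86. There snR79, snR39B, snR69, snR60 and snR66 had the lowest ratios of timecourse 3 to timecourse 2, between 0.0267 (snR79) and 0.484 (snR66). snR39B had 466.8 CPM in that library, against 7666 and 5687 CPM in total RNA of timecourses 1 and 2. Members that rest on these libraries are therefore given by library below, and counts are given with timecourse as a term in the fit and without single timecourses.

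The members together took a small share of the RNA captured after labelling, and the mean share was larger at each later time. Bead background was not subtracted from these libraries. After 1.5 min their summed share outside rRNA averaged 4.38% ± 0.139, after 2.5 min 5.38% ± 1.14 and after 5 min 6.91% ± 1.55 (SD over 3 libraries each). The share was 10.1% ± 2.01 without label (SD, n = 2) and 13.3% ± 5.37 in total RNA (SD, n = 3), where timecourse 3 alone reached 19.4%. Every labelled library lay below every total RNA library, while the label-free libraries overlapped with total RNA. With rRNA in the denominator the mean at 5 min (6.01%) lay above that without label (4.74%). Box H/ACA members made up most of it, at 3.65% ± 0.191 at 1.5 min, 4.46% ± 1.18 at 2.5 min, 5.83% ± 1.46 at 5 min and 11.6% ± 5.16 in total RNA. Box C/D members took 0.736% ± 0.115, 0.918% ± 0.0530 and 1.08% ± 0.155 at the 3 times and 1.63% ± 0.359 in total RNA.

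**Figure D2:**
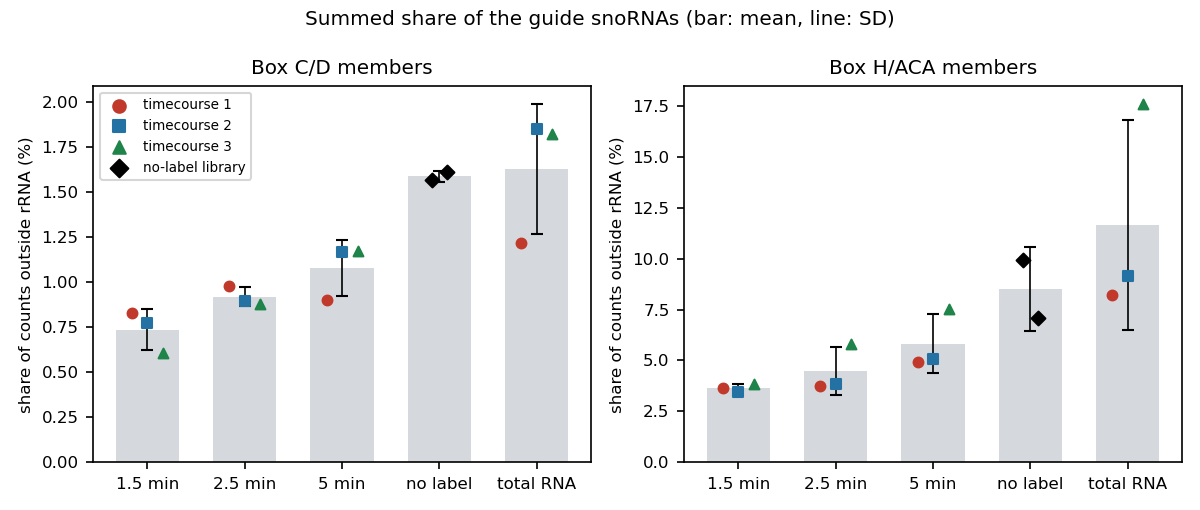
Summed share of counts outside rRNA (%, vertical axis) for box C/D members (left) and box H/ACA members (right) in each group, with a point per library, bars at the mean and lines for the SD; the 2 vertical axes have different ranges. In both classes every labelled library lies below every total RNA library.

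Compared per length, in the authors' RPKM (reads scaled to feature length and library), levels spread widely within the set. In total RNA the mean ran between 192 ± 172 RPKM for snR65, a guide for the large-subunit rRNA, and 56575 ± 36908 RPKM for snR83, a pseudouridylation guide for the small-subunit rRNA (SD, n = 3 each). snR8, which guides pseudouridines of the large subunit, came next at 41873 ± 21642 RPKM, with a range that overlaps that of snR83. snR39B led the box C/D class at 23906 ± 19770 RPKM, but its rank among the 47 was 2 in timecourses 1 and 2 and 41 in timecourse 3. At 1.5 min snR39B had the highest mean of all members, at 28055 ± 21089 RPKM, and snR65 the lowest, at 17.8 ± 8.45 RPKM. In timecourse 3 at 1.5 min, however, snR39B had 6066 RPKM, below snR8 at 18765 and snR83 at 15435 RPKM.

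The comparison of labelled with total RNA sets RNA captured after minutes of labelling, bead background included, against the standing pool. At 1.5 min all 47 members had a log2 fold change below 0, with a median of −4.12, and 38 of 47 were called lower (edgeR quasi-likelihood test, Benjamini-Hochberg adjusted p under 0.05), where 11.4% of all 11513 features tested were called lower. No member was called higher, beside 6.71% of all features. TMM scaling sets the bulk of features near 0, and a fold change here is a change in share relative to that bulk, not in the number of molecules. Scaled by library size alone, all features had a median of 1.97, 46 of 47 members still lay below 0, and 23 were called lower, beside 0.782% of all features called lower and 57.2% called higher.

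Box H/ACA members were the more uniform class: 25 of 25 were called lower at 1.5 min, with log2 fold changes between −5.22 (snR5) and −2.77 (snR86). In each of these 25 members every 1.5 min library was below every total RNA library, as were 14.6% of all features. snR31, which guides a pseudouridine at U999 of the small-subunit rRNA, had 54.6, 45.1 and 84.4 CPM at 1.5 min in timecourses 1, 2 and 3, against 1257, 1182 and 3186 CPM in total RNA. The 2 ranges were far apart (log2 fold change −4.93 ± 0.53 SE; edgeR quasi-likelihood adjusted p = 0.000402). snR5, a guide for 2 large-subunit sites, had 38.8, 38.1 and 124 CPM at 1.5 min, against 902, 1470 and 5112 CPM in total RNA. The labelled values lay well under the lowest total RNA value (−5.22 ± 0.89, adjusted p = 0.00251). snR189, which guides sites in both subunits, had 118, 321 and 437 CPM at 1.5 min, against 2026, 6878 and 21458 CPM in total RNA. Its total RNA values differed over 10-fold between timecourses and its SE was 1.03 around −5.12 (adjusted p = 0.00626). snR37, reported by RefSeq to have a structural role in early pre-60S particles beside its guide function, stood at −4.91 ± 0.63 (adjusted p = 0.000602). snR82, a guide with 3 large-subunit sites, stood at −4.45 ± 0.51 (adjusted p = 0.000402).

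The smallest changes of the class were those of snR86, at 1004 nt the longest member, and of snR8. snR86 had 2876, 2556 and 1828 CPM at 1.5 min, against 22617, 14200 and 12637 CPM in total RNA. The groups were clearly separate (−2.77 ± 0.48, adjusted p = 0.00259). snR8 had 1562, 2084 and 2296 CPM at 1.5 min, against 8797, 16598 and 25725 CPM in total RNA (−3.11 ± 0.61, adjusted p = 0.00518). snR83 had the highest mean RPKM in total RNA, though its rank there in timecourse 2 was 5. It had 6215, 2022 and 3041 CPM at 1.5 min, against 36636, 12164 and 82004 CPM in total RNA. Its groups did not overlap either (−3.54 ± 0.74, adjusted p = 0.00756).

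**Figure D3:**
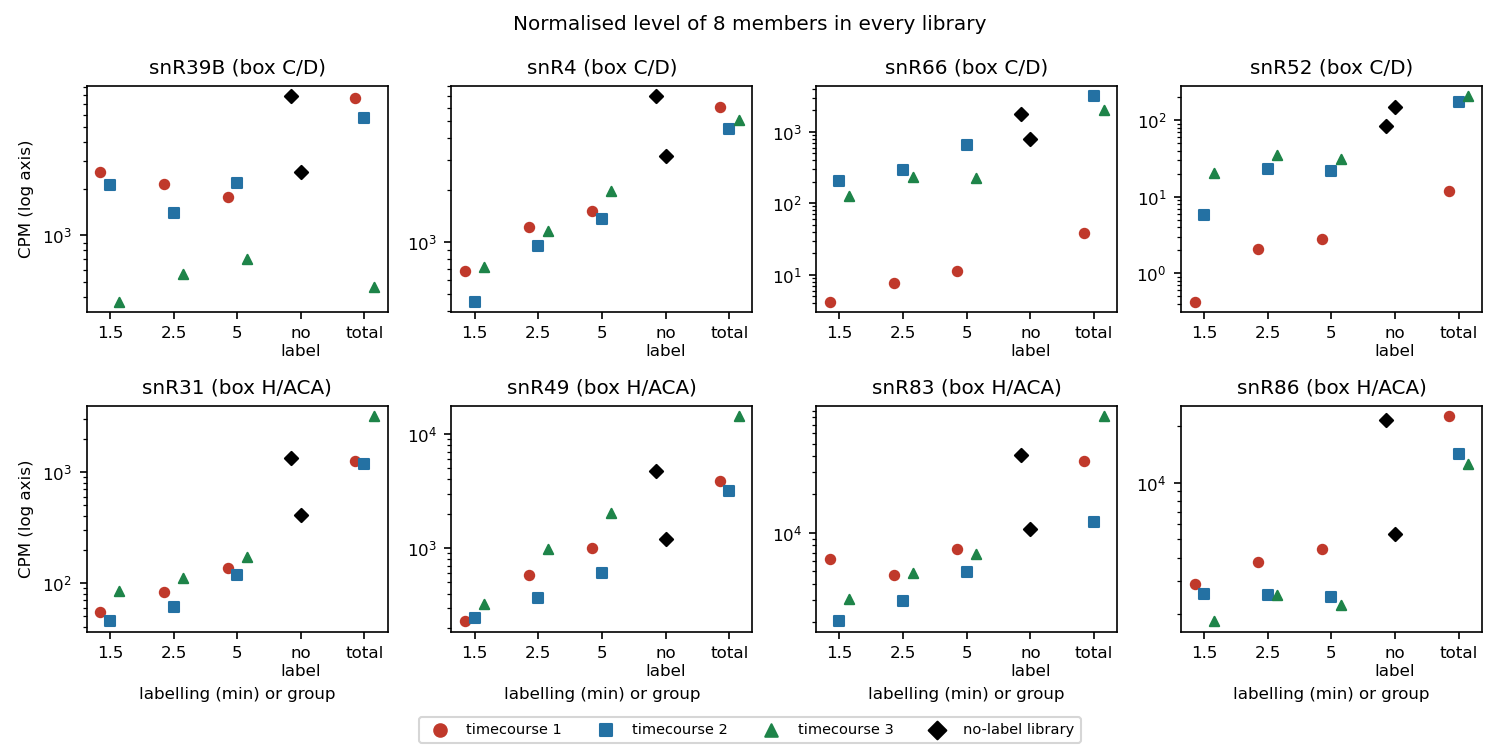
Level (CPM, log axis) of 8 members in every library, by labelling time, for label-free capture and for total RNA; coloured symbols are timecourses and black diamonds the label-free libraries. snR31, snR49, snR83 and snR86 separate labelled from total RNA in every timecourse. snR66 and snR52 are low in the labelled and total RNA libraries of timecourse 1, and snR39B in those of timecourse 3.

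Box C/D members had a median of −4.08, against −4.14 in box H/ACA, and 13 of 22 were called lower at 1.5 min, beside the 11.4% of all features. The difference between the classes was not tested. The SE of the fold changes had a median of 1.07 in box C/D and 0.566 in box H/ACA. In 12 of the 22 the 1.5 min and total RNA libraries did not overlap, beside the 14.6% of all features. With timecourse as a term in the fit 20 of 22 box C/D and 25 of 25 box H/ACA members were called lower, beside 14.7% of all features. snR50, snR52, snR56 and snR87, which missed the threshold in the fit without that term (adjusted p = 0.0515, 0.0799, 0.0570 and 0.0503), passed it with the term (adjusted p = 0.000543, 0.000101, 8.1e-05 and 0.00310).

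snR4 and snR45, which guide acetylation of cytosines in the small-subunit rRNA by Kre33 rather than methylation, were lower at 1.5 min. snR4 had 681, 451 and 713 CPM, against 6053, 4506 and 5097 CPM in total RNA (−3.09 ± 0.37, adjusted p = 0.00047). Its SE was the smallest of the 22 box C/D members in this comparison. snR45 had 67.6, 45.0 and 119 CPM, against 696, 1304 and 2723 CPM in total RNA (−4.35 ± 0.65, adjusted p = 0.00135). snR13, a methylation guide for neighbouring adenines of the large subunit, had 174, 113 and 106 CPM at 1.5 min, against 1255, 632 and 1714 CPM in total RNA. Its groups did not overlap (−3.20 ± 0.54, adjusted p = 0.00234).

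snR52 is transcribed by RNA polymerase III rather than II. It had 0.429, 5.78 and 20.4 CPM at 1.5 min, against 11.9, 175 and 206 CPM in total RNA. Within each timecourse the labelled value was lower, but timecourse 3 at 1.5 min lay above timecourse 1 of total RNA, so the groups overlapped. snR56, a small-subunit guide with the lowest fold change of all members at −5.96, had an SE of 1.98. It had 0.257, 4.71 and 14.9 CPM at 1.5 min, against 5.03, 263 and 986 CPM in total RNA. Again the overlap came from timecourse 1. snR62 (−5.34 ± 1.45, adjusted p = 0.0262) and snR65 (−5.33 ± 1.07, adjusted p = 0.0061) were called lower, each with 1 site in the large subunit. snR48, which guides methylation of guanosines in the large subunit, was lower too (−3.19 ± 0.69, adjusted p = 0.00906).

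snR39B and snR60 had the smallest changes of the box C/D class. snR39B had 2578, 2113 and 375 CPM at 1.5 min, against 7666, 5687 and 466.8 CPM in total RNA. Each labelled library was below the total RNA of its own timecourse, yet the groups overlapped widely and the fold change was not called (−1.45 ± 0.93, adjusted p = 0.285; adjusted p = 0.0735 with timecourse as a term). Under library size alone its direction turned, to 0.39. snR60 had 27.2, 19.2 and 34.6 CPM at 1.5 min, against 114, 318 and 90.8 CPM in total RNA, and was called lower (−2.69 ± 0.50, adjusted p = 0.00407). snR79 was not called (adjusted p = 0.286). It had 21.7 and 34.0 CPM at 1.5 min in timecourses 2 and 3, against 868 and 31.1 CPM in total RNA, so timecourse 3 did not show the lower level.

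Later labelling times kept the direction with smaller fold changes. At 2.5 min the median was −3.49 and 34 of 47 members were called lower, beside 10.2% of all features: 10 of 22 box C/D and 24 of 25 box H/ACA. At 5 min the median was −2.77 and 27 were called lower, beside 8.47% of all features: 6 of 22 box C/D and 21 of 25 box H/ACA. No member was called higher at either time, beside 4.86% and 3.26% of all features, and all 47 had values below 0 at both. The class medians stayed close, at −3.35 for box C/D and −3.52 for box H/ACA at 2.5 min, and at −2.80 and −2.77 at 5 min. With timecourse as a term 44 members were called lower at 2.5 min and 42 at 5 min, beside 13.7% and 12.1% of all features. Of these, 19 and 17 were box C/D and 25 and 25 box H/ACA. All comparisons with total RNA share the same 3 total RNA libraries.

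The calls depended on timecourse 2. Without it none of the 11433 features tested was called at any time over total RNA, members included. Without timecourse 1 the members called lower numbered 32, 15 and 0 at the 3 times, beside 2.35%, 1.18% and 0% of all features. With timecourse as a term and timecourse 1 left out, a setting chosen after seeing the data, they numbered 42, 42 and 33, beside 5.42%, 5.1% and 4.12%. Without timecourse 3 they numbered 34, 33 and 27, beside 16.6%, 14.4% and 12.7%. Within single timecourses the direction was steadier: 44 of 47 members were lower at 1.5 min than in the total RNA of the same timecourse in all 3, against 38.5% of the 5572 features with at least 10 counts in each library. The other 3 were snR58, snR71 and snR79. snR58 and snR71 were lower in timecourses 2 and 3 but not in timecourse 1, where total RNA held only 15 and 11 counts of them. At 2.5 min 43 members and at 5 min 42 members were lower in all 3, beside 38.3% and 36.8% of such features. All 25 box H/ACA members were lower in all 3 timecourses at each labelling time.

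**Figure D4:**
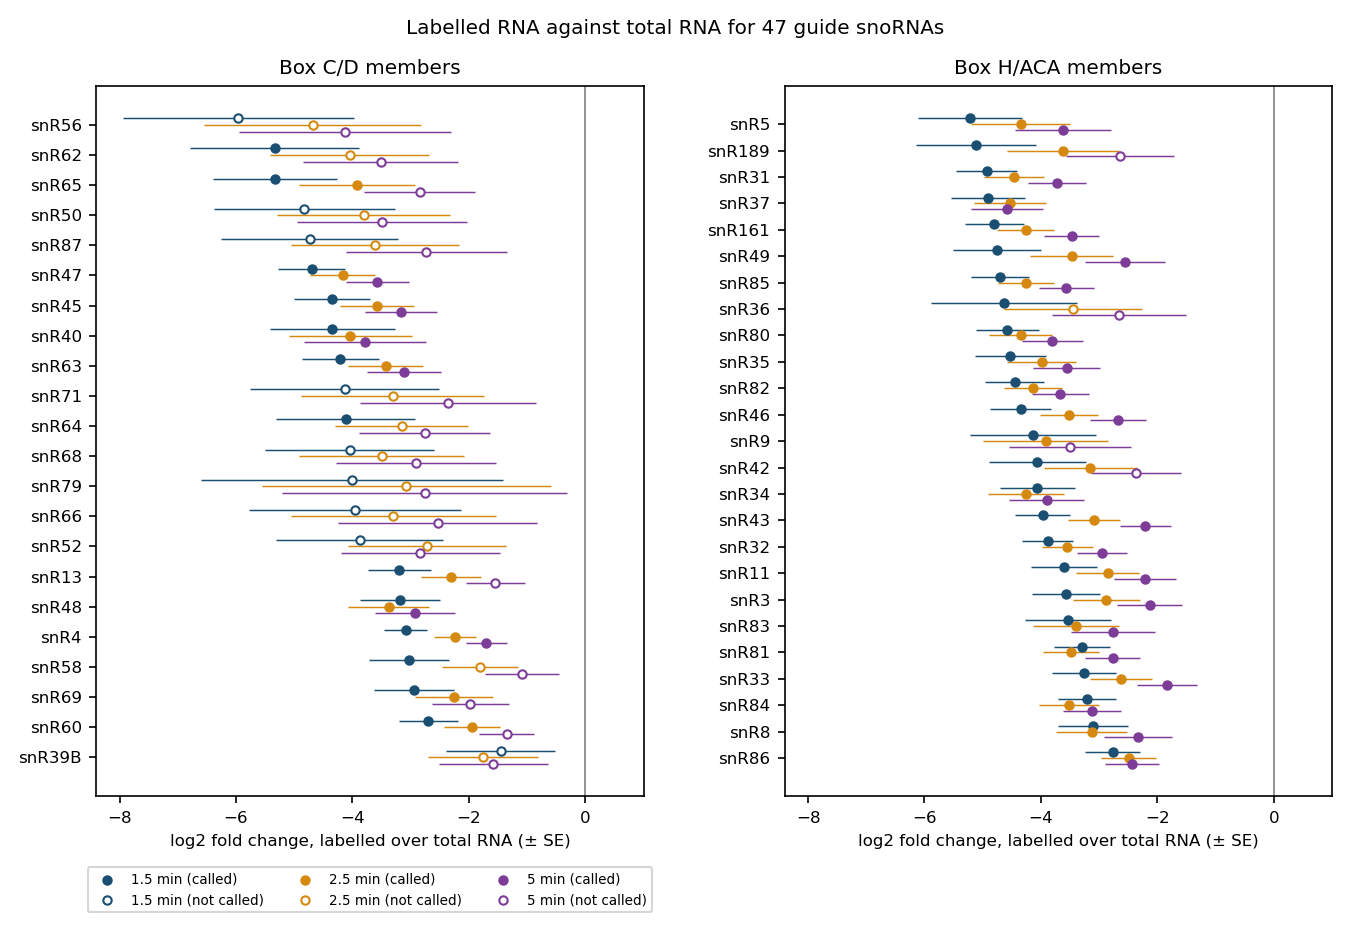
Log2 fold change of labelled over total RNA (horizontal axis, lines for the SE) for each box C/D member (left) and box H/ACA member (right) at 1.5, 2.5 and 5 min; filled points were called (edgeR adjusted p under 0.05). All points lie below 0, most members move towards 0 with longer labelling, and snR79 has the longest error lines.

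The direct comparison of 5 min with 1.5 min asks whether guide snoRNAs gain share as labelling goes on. Of the 47 members 46 had a log2 fold change above 0, with a median of 1.25 (1.34 in box C/D and 1.14 in box H/ACA), but edgeR called no member and 0% of all 11513 features. At an unadjusted p under 0.05 there were 18 members (6 box C/D and 12 box H/ACA) and 754 features. DESeq2 called 2 members higher and 0 lower, beside 0.528% and 0.716% of all features. In each of the 3 timecourses 36 of 47 members were higher at 5 min than at 1.5 min (15 of 22 box C/D and 21 of 25 box H/ACA), and 0 were lower in all 3. Among the 10095 features with at least 10 counts in the libraries compared, 30.2% were higher in all 3 and 27.4% lower. From 1.5 to 2.5 min 31 of 47 members were higher in all 3, beside 19.8% of features, and 0 were lower, beside 20.1%. From 2.5 to 5 min 33 were higher in all 3, beside 27.6%, and 0 were lower, beside 23.1%. In 6 box C/D and 13 box H/ACA members every 5 min library lay above every 1.5 min library, beside 14.2% of all features.

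snR49, which guides sites in both subunits, had 228, 243 and 323 CPM at 1.5 min, 584, 367 and 985 CPM at 2.5 min and 1013, 606 and 2038 CPM at 5 min in timecourses 1, 2 and 3. It was higher at each later time in every timecourse, with a log2 difference of 2.20 ± 0.67 that did not pass adjustment (adjusted p = 0.511). snR189 had 475, 1547 and 2842 CPM at 5 min (2.47 ± 0.92, adjusted p = 0.656), against the 1.5 min values above, again higher within each timecourse. snR65, with only 9 to 391 counts in its labelled libraries, had the largest value at 2.48 ± 0.95 (adjusted p = 0.683). snR4 had 1507, 1353 and 1964 CPM at 5 min, with no overlap with 1.5 min (1.39 ± 0.35, adjusted p = 0.444). snR87, a small-subunit methylation guide, stood at 2.01 ± 1.35 (adjusted p = 0.894).

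At the other end were snR39B, snR84, snR34 and snR48. snR39B had 1763, 2168 and 706 CPM at 5 min, against 2578, 2113 and 375 CPM at 1.5 min. It was lower in timecourse 1, close in timecourse 2 and higher in timecourse 3 (−0.13 ± 0.92, adjusted p = 0.994). snR84, 550 nt long, had 2458, 1473 and 1686 CPM at 5 min, against 2047, 2155 and 1100 CPM at 1.5 min (0.08 ± 0.46, adjusted p = 0.993). snR34 stood at 0.16 ± 0.57 and snR48 at 0.26 ± 0.64. Their signs were not stable: that of snR39B turned with timecourse as a term (0.19), and those of snR34 and snR84 turned without timecourse 1 (−0.089 and −0.10).

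The label-free libraries show what the beads held without 4tU. At 1.5 min all 47 members lay below them, with a median log2 fold change of −3.39, and 28 of 47 were called lower (9 of 22 box C/D and 19 of 25 box H/ACA), beside 3.35% of 11688 features called lower, 1.44% called higher and 4.79% called in either direction. Leaving out timecourse 1 or timecourse 2 took this to 0, beside 0% of all features, and leaving out label-free library 1 took it to 10, beside 3.95%. Under library size alone 3 were called lower, beside 0.0856% of all features, and all features had a median of 2.26. In TMM-scaled CPM every 1.5 min library was below both label-free libraries in all 47 members, beside 20.2% of all features. Without that scaling the summed share of all counts, rRNA included, overlapped, at 3.31% to 4.12% at 1.5 min and 3.87% and 5.61% without label. Outside rRNA, also without that scaling, the shares were separate, at 4.22% to 4.48% at 1.5 min and 8.67% and 11.5% without label. The separation of the summed share at 1.5 min thus depends on whether rRNA is counted. For snR31 the 1.5 min values of 54.6, 45.1 and 84.4 CPM stood against 1324 and 410 CPM without label (−3.82 ± 0.62, adjusted p = 0.0124). For snR4 they stood against 7001 and 3152 CPM without label (−3.05 ± 0.52, adjusted p = 0.0124).

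At 5 min 46 of 47 members lay below the label-free libraries, with a median of −2.09, but none was called, beside 0.282% of all features called lower and 0.0599% higher (0.342% in either direction). At 5 min 27 members and 2396 of 11688 features were under an unadjusted p of 0.05. DESeq2 called 20 members lower, beside 6.7% of all features. Without label-free library 2 edgeR called 14 lower, beside 3.74%, and with rRNA features removed before scaling it called 5, beside 1.17%. Under library size alone the members' median turned to 0.21, 2 were called higher, beside 45.1% of all features, and the median of all features was 2.13. Library size includes rRNA, so the members' direction in this comparison depends on the scaling and on whether rRNA is counted. Outside rRNA the summed share averaged 6.91% at 5 min and 10.1% without label, and the ranges overlapped. snR58 was the member above 0 in the main scaling (0.60 ± 0.71, adjusted p = 0.678).

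Label-free capture and total RNA did not separate. The median of the members was −0.89, 42 of 47 were below 0, and edgeR called 0 members, beside 0% of all features. At an unadjusted p under 0.05 there were 1 member, snR58, and 1233 features, and DESeq2 called 0 members. For no member did the libraries of these groups stand apart without overlap, beside 4.03% of all features lower and 6.55% higher in this way. snR83 had 40834 and 10729 CPM without label, against 36636, 12164 and 82004 CPM in total RNA, and snR86 had 21466 and 5336 CPM, against 22617, 14200 and 12637 CPM. Label-free library 1 was above library 2 for both.

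The ratio of summed box C/D to summed box H/ACA counts ran between 0.104 and 0.262 in the 14 libraries. Its log2 mean was −2.32 ± 0.29 at 1.5 min, −2.25 ± 0.42 at 2.5 min, −2.41 ± 0.29 at 5 min (SD, n = 3 each), −2.40 ± 0.38 without label (SD, n = 2) and −2.78 ± 0.48 in total RNA (SD, n = 3). The groups overlapped. Without the highest member of each class it was −2.87 at 1.5 min and −2.79 in total RNA, the other order. snR83 alone supplied 6.71% to 25.4% of all member counts in a library. Across the 47 members, Pearson's r between the fold change of 5 min over 1.5 min and the log2 level in total RNA was −0.42 (Spearman's rho −0.39); the points share libraries. The share of T in the sequence, where 4tU can be placed, ran between 22.9% and 42.6%, and its r with the 1.5 min fold change over total RNA was −0.12 (rho −0.11).

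Other snoRNAs are given for comparison. Beside the 11.4% of all features called lower at 1.5 min over total RNA, the 8 intron-encoded ones had a median log2 fold change of −4.05, with 4 called lower, and the 17 polycistronic ones −4.35, with 13 called lower. The 4 pre-rRNA cleavage snoRNAs stood between −3.26 and −2.68, with 4 called lower. At 5 min over total RNA these medians were −2.96, −3.21 and −2.51. Differences from the 47 members were not tested.

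Messages for the proteins that build and trim snoRNPs were tested in the same fit. Of 35 listed genes 2 were called lower than total RNA at 1.5 min, 4 at 2.5 min and 2 at 5 min, and 0 higher, beside 11.4%, 10.2% and 8.47% of all features called lower. Calls were thus not clearly more frequent in the list than among all features, and the difference was not tested. SNU13, the protein that binds the box C/D motif first, was lower at all 3 times (−2.25 ± 0.48, −1.77 ± 0.47 and −1.64 ± 0.47, adjusted p = 0.00841, 0.0274 and 0.0438). NAB3, part of the complex that ends snoRNA transcription, was lower at 1.5 min (−1.08 ± 0.33, adjusted p = 0.0424) and at 2.5 min (−1.21 ± 0.33, adjusted p = 0.0301). CBF5, the pseudouridine synthase, was lower at 2.5 min (−0.93 ± 0.24, adjusted p = 0.0261) and 5 min (−1.16 ± 0.25, adjusted p = 0.0116). TAH1, an assembly factor, was lower at 2.5 min (−1.31 ± 0.39, adjusted p = 0.0438). RNT1, the nuclease that opens many snoRNA precursors, had 2.09 ± 0.69 at 1.5 min and was not called (adjusted p = 0.0552).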

How the data were processed

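The deposited table holds raw read counts and, beside them, RPKM, per the file headers. STAR 2.4.2a and R64 come from the submitters' processing notes, with the counting tool and strand setting not given in the sources used here. Of 12549 rows 100 repeated another and were removed. RPKM, computed by the authors, served only to compare levels between members; with the counts it implied the RefSeq lengths. The 2 label-free RPKM columns were not used.

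Counts were tested with edgeR 4.0.16 (R 4.3.3): filterByExpr with a minimum count of 10 (all 47 members passed), TMM scaling, quasi-likelihood test, Benjamini-Hochberg over all features, threshold 0.05. Labelled and total RNA were fitted together (4 groups), label-free comparisons over 5 groups; the fit was tested on simulated data. DESeq2 1.42.0 was an alternative. Labels number the timecourses across groups. Deviations of same-numbered libraries from their group means correlated at 0.25 to 0.88, so the numbers pair the libraries. Others correlated at −0.66 to 0.10, which is no separate evidence, because centring on group means lowers them when same-numbered ones are positive. The fit reported first has no timecourse term, and the fit with that term is given beside it. The label-free columns name no timecourse and were paired with nothing.

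Members and lists were chosen with earlier results of these data known. The text names, per box class, the largest and smallest 1.5 min changes, the highest levels, both ends of the 5 min change and known cases. Members outside that rule (snR9, snR40, snR58, snR64, snR66, snR68, snR69, snR71 and snR79) were named after their values were seen. Guides, boxes and motifs were searched in R64. SD and SE values include the spread between libraries, while the upper limits for snR79 cover counting error only.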

Additional observations from a re-analysis of the deposited data

How the results depend on the processing

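Members called under other settings were within 1.5 times of the counts reported, except as follows. With library size only the calls were 23, 17 and 11 at 1.5, 2.5 and 5 min over total RNA, 3 at 1.5 min over label-free capture and 2 (higher) at 5 min over label-free capture. The replicate block moved the 5 min count over total RNA to 42, and changed calls of snR50, snR52, snR56 and snR87 as given above. The block changed no other call among the members named by rule in the comparisons of 1.5 min with total RNA and of 5 min with 1.5 min. DESeq2 gave 2 for 5 min over 1.5 min and 20 for 5 min over label-free capture, and removing rRNA before scaling gave 5 there. Leaving out single timecourses or total RNA libraries gave 0 to 42, 0 to 37 and 0 to 32 at the 3 times over total RNA. Leaving out timecourses or label-free libraries gave 0 to 30 at 1.5 min and 0 to 14 at 5 min over label-free capture. With 2 libraries a group these fits have few degrees of freedom.

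Directions turned for few named members. With library size only they were 0.39 for snR39B at 1.5 min over total RNA, and −0.046 for snR34 and −0.16 for snR84 at 5 min over 1.5 min. Under the block snR39B had 0.19. For 5 min over 1.5 min, leaving out each timecourse gave −0.089 to 0.29 for snR34, −0.26 to 0.15 for snR39B, −0.13 to 0.64 for snR48 and −0.10 to 0.40 for snR84. With the block and without timecourse 1, chosen after seeing the data, they were −0.11, 0.46 and −0.13 for snR34, snR39B and snR84. The causes were not tested.

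The log2 ratio of box C/D to box H/ACA without the highest member of each class was −2.87, −2.45, −2.53, −2.45 and −2.79 at 1.5, 2.5 and 5 min, without label and in total RNA, so 1.5 min then lay below total RNA. As a difference of class medians it was −3.72, −3.47, −3.39, −3.01 and −3.76 at 1.5, 2.5 and 5 min, without label and in total RNA. With rRNA in the denominator the summed share was 3.76%, 4.64%, 6.01%, 4.74% and 10.9% in the same order, so 5 min then lay above label-free capture. Depth limits snR79, snR56, snR52 and snR65, with 0, 3, 5 and 9 counts in the 1.5 min library of timecourse 1.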
